A study of Mus musculus with 2 samples.

Results

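Of 10 genes grouped as disease-associated surface and secreted factors, 9 were followed among 31053 genes counted: Itgax, Spp1, Gpnmb, Igf1, Lgals3, Lgals3bp, Cd52, Cd68 and Ank. They were taken by gene symbol alone, and Clec7a is not analysed here. The data are unique molecular identifier (UMI) counts from droplet-based single-cell RNA sequencing of cells sorted from brain cortex as singlets that were negative for SYTOX and Ly6G and positive for CD45 and CD11b. In the photoconversion group, male hemizygous 5xFAD mice on C57BL/6J received 5 uL of the photosensitiser Visudyne into the cisterna magna at the age of 4 months, followed by 5 steps of transcranial 689-nm red light meant to ablate meningeal lymphatic vessels. In the Visudyne-only group, mice of the same sex, genotype and strain received 5 uL Visudyne without light. Both groups were injected again after 3 weeks, and tissue was taken 3 weeks after that, at 5.5 months by the labels. Every mouse carried the 5xFAD transgenes, which drive amyloid deposition, and neither group here shows the genes in mice without them or with light alone. Each group was 1 library from 3 pooled mice. There was therefore no replicate check and no test, all differences are between these libraries, and all intervals are at 95% and cover counting error only.

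The photoconversion library gave 317 kept cells with 1816177 UMIs, and the Visudyne-only library 555 kept cells with 2422711 UMIs. Barcodes entered when 200 or more genes were detected and mitochondrial transcripts made up 10% of UMIs or less. Kept cells had a median of 3410 UMIs in the photoconversion library and 2670 in the Visudyne-only library, so shares of cells with a UMI are also given at equal depth. The libraries shared 27 barcodes, of which 0 were among kept cells. At least 3 microglia marker UMIs, outnumbering those of endothelial, mural, astrocyte and oligodendrocyte markers, were present in 308 of 317 photoconversion cells and 542 of 555 Visudyne-only cells. Cells with at least 3 UMIs of monocyte or border macrophage markers numbered 4 in the photoconversion library and 14 in the Visudyne-only library. No cells were clustered or named, and doublets were not removed.

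Microglia, the resident macrophages of the brain, change their expression around amyloid plaques. They lower homeostatic genes such as P2ry12 and Tmem119 and raise Apoe, the lipid carrier apolipoprotein E, together with receptors, lysosomal proteins and secreted factors. Itgax encodes CD11c, an integrin alpha chain that pairs with the beta chain Itgb2. Cd68 is a glycoprotein of late endosomes and lysosomes, and Gpnmb a transmembrane glycoprotein found in lysosomes and at the surface. Cd52 encodes a short glycosylphosphatidylinositol-anchored peptide, and Ank a membrane protein that exports ATP and thereby supplies extracellular pyrophosphate. Spp1 is osteopontin, a secreted ligand of integrins and CD44, and Igf1 is insulin-like growth factor 1. Lgals3 is galectin-3, a galactoside-binding lectin, and Lgals3bp is a secreted glycoprotein that binds it.

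Promoters of Itgax, Spp1, Igf1 and Ank are shown because these members were found in the same cells more often than expected at 2000 UMIs per cell in both libraries. Each runs 5′ to 3′ from 250 bases before to 50 bases after the RefSeq start site, on GRCm38.p6. Capitals mark TGANTCA, the core letters of AP-1 sites, and GAGGAA, a core read by PU.1, on either strand (GAGGAA on the other strand reads TTCCTC).
Itgax, chr7:128129300-128129599, plus strand: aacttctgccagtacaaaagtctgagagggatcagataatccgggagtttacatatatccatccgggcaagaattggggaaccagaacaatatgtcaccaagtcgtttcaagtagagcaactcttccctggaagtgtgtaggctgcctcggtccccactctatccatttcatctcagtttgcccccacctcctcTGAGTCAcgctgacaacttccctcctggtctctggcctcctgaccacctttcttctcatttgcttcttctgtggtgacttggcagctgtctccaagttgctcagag
Spp1, chr5:104434861-104435160, plus strand: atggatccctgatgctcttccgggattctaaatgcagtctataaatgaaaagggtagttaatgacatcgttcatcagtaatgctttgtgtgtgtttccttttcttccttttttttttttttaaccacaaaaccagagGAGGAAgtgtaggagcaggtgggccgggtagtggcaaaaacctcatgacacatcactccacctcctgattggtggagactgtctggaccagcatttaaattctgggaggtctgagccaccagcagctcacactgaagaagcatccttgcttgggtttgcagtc
Igf1, chr10:87860861-87861160, plus strand: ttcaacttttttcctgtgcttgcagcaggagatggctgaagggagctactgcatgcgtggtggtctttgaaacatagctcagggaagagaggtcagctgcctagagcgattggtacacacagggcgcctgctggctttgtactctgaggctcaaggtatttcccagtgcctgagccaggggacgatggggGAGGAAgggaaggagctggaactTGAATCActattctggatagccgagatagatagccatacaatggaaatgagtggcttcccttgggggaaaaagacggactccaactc
Ank, chr15:27466427-27466726, plus strand: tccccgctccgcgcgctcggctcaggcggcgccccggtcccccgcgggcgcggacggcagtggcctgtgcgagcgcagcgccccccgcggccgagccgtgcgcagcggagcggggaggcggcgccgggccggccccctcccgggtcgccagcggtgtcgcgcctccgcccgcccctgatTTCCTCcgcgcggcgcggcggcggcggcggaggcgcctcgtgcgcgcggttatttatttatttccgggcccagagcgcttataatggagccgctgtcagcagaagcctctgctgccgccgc

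TGANTCA was present in 4 of 9 member promoters searched, at -56 in Itgax, -37 in Igf1, 9 in Gpnmb, and -149 and -24 in Cd68, counted from the start site to the first letter of the match. Among all 32851 promoter windows of 300 bases, 7.81% held it. GAGGAA was in 5 of the 9 windows, those of Spp1 at -113, Igf1 at -60, Cd68 at -225 and 30, Lgals3bp at 33 and Ank at -71, and in 28.3% of all windows. CACGTG, an E-box read by factors of the MiT family, was in 0 of the 9 windows and in 7.15% of all. These windows include a second one for Spp1, with no match; Cd52 is not among them. A match is a description of letters and no measure of binding.

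Summed over kept cells, 7 of the 9 members had higher and 2 lower levels in the photoconversion library. Their median log2 ratio was 0.18, against -0.06 over 8823 genes with at least 20 UMIs. Spp1 and Gpnmb were at least 1.5-fold higher, 2 of 9 members, where 6.18% of all genes passed that fold upward. Lgals3 was at least 1.5-fold lower, 1 of 9 members, where 9.84% of all genes passed it downward. Among the 4009 genes with at least 100 UMIs, these shares were 1.62% and 3.29%. The members that passed were those whose UMIs lay in few cells, and their ratios depended on those cells, with values in the paragraphs on each gene.

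Among the surface and lysosomal members, Itgax (ENSMUSG00000030789, chromosome 7, 128129547 to 128150657 in mm10) stood at 122 counts per 1000000 UMIs (CPM) in the photoconversion library and 94.5 CPM in the Visudyne-only library, from 222 and 229 UMIs. The ratio was 1.29 (1.07 to 1.56). Without the 10 richest cells of each library it was 1.17 (0.916 to 1.5), an interval that included 1. For each gene those 10 were picked by their own count of it, from 317 and from 555 cells. The cut thus took a larger share of photoconversion cells, which by itself pulls such ratios down. A UMI was present in 68 of 317 photoconversion cells (21.5%) and in 87 of 555 Visudyne-only cells (15.7%), and those cells held a median of 2 UMIs in both libraries. The richest cell held 16 UMIs in the photoconversion library and 12 in the Visudyne-only library.

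Cd68 (ENSMUSG00000018774, chromosome 11, 69664213 to 69666153) was at 1724.5 CPM in the photoconversion library and 1889 CPM in the Visudyne-only library, a ratio of 0.913 (0.872 to 0.956). It was detected in 271 of 317 photoconversion cells (85.5%) and 456 of 555 Visudyne-only cells (82.2%). Cd52 (ENSMUSG00000000682, chromosome 4, 134082448 to 134095082) was at 2021 CPM in the photoconversion library and 1786 CPM in the Visudyne-only library, a ratio of 1.13 (1.08 to 1.18). Its UMIs were in 248 photoconversion cells (78.2%) and 385 Visudyne-only cells (69.4%). Both members were thus present in most cells of either library, and each ratio was under 1.5-fold. Ank (ENSMUSG00000022265, chromosome 15, 27466677 to 27594909) stood at 275 CPM in the photoconversion library and 271 CPM in the Visudyne-only library, a ratio of 1.02 (0.902 to 1.14) whose interval included 1. It was present in 119 photoconversion cells (37.5%) and 165 Visudyne-only cells (29.7%). Otulin lies on the opposite strand of the Ank locus and had 186 UMIs, and strand use in counting is not given in the sources used here.

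Gpnmb (ENSMUSG00000029816, chromosome 6, 49036546 to 49070929) had 72 UMIs in 11 photoconversion cells, 39.6 CPM, and 37 UMIs in 10 Visudyne-only cells, 15.3 CPM. The ratio of 2.60 (1.72 to 3.97) rested on very few cells. In the 5 richest photoconversion cells the counts were 32, 13, 12, 8 and 1, and in the 5 richest Visudyne-only cells 17, 10, 2, 2 and 1. Without the richest cell of each library the ratio was 2.65 (1.52 to 4.79), from 40 photoconversion and 20 Visudyne-only UMIs. Outside the 10 richest cells 1 UMI was left in the photoconversion library and 0 in the Visudyne-only library, so no ratio is given for that cut. Of the cells with at least 3 monocyte or border macrophage marker UMIs, 1 photoconversion cell held 13 Gpnmb UMIs and 1 Visudyne-only cell held 17. Both were deep and rich in microglia markers, the photoconversion cell with 5 monocyte and 1228 microglia marker UMIs among 20387 and the Visudyne-only cell with 3 and 1107 among 18443. Without the cells with these markers the ratio was 3.88 (2.30 to 6.80). Leaving out the richest cell as well removed a further cell from the photoconversion library alone, since the richest Visudyne-only cell was already out, and gave 1.78 (0.961 to 3.35), an interval that included 1. With a mitochondrial maximum of 5% the log2 ratio of Gpnmb was 0.44, against 1.37 with 10%. Without the deepest 5% of cells it was 3.46, from 46 UMIs in the photoconversion library and 5 in the Visudyne-only library.

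**Figure D1:**
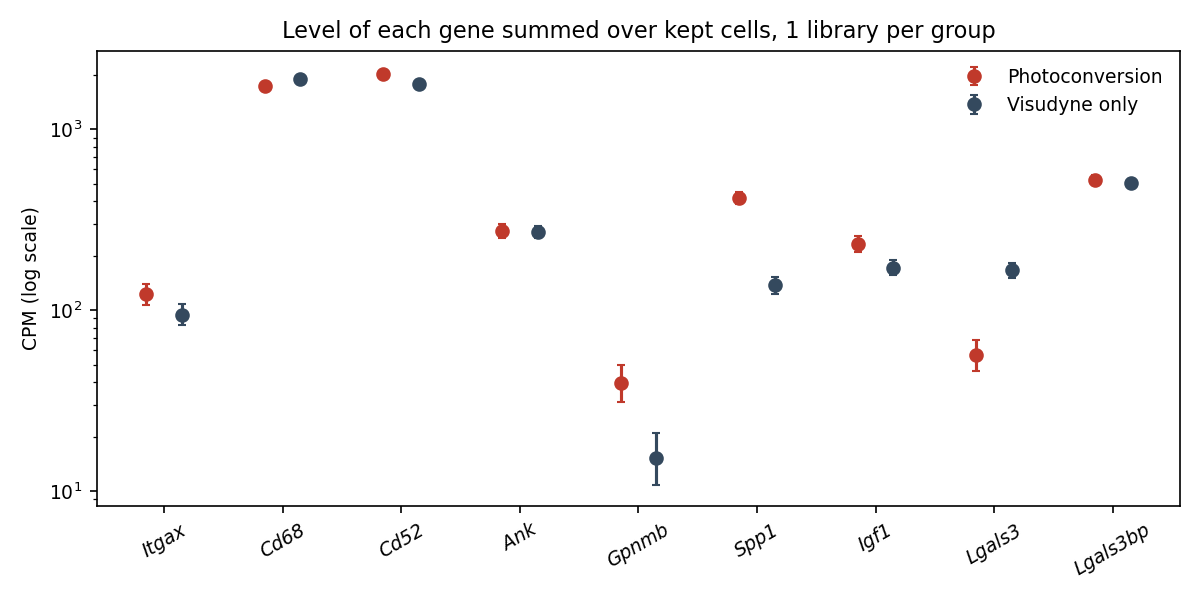
Level of each member in CPM on a log axis, summed over kept cells of the photoconversion library (red, left of each pair) and the Visudyne-only library (dark, right), with exact Poisson intervals at 95%. The points of Spp1, Gpnmb and Lgals3 lie furthest apart, with ratios of 3.03, 2.60 and 0.342.

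Among the secreted members, Spp1 (ENSMUSG00000029304, chromosome 5, 104435118 to 104441050) was at 417 CPM in the photoconversion library and 138 CPM in the Visudyne-only library, a ratio of 3.03 (2.66 to 3.45). Its UMIs were in 56 photoconversion cells (17.7%) and 60 Visudyne-only cells (10.8%). The 5 richest photoconversion cells held 349, 159, 57, 35 and 33 UMIs, and the 5 richest Visudyne-only cells 107, 73, 18, 12 and 8. The 2 richest cells thus held 67.0% of the photoconversion total of 758 UMIs and 53.9% of the Visudyne-only total of 334. Without the richest cell of each library the ratio was 2.42 (2.05 to 2.85), and without the 10 richest it was 1.07 (0.767 to 1.49). The remaining 67 photoconversion and 86 Visudyne-only UMIs gave an interval that included 1. Those 10 cells were picked by their own Spp1 count and were a larger share of the photoconversion cells, so this ratio is no equal comparison.

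Igf1 (ENSMUSG00000020053, chromosome 10, 87858265 to 87937042) was at 232 CPM in the photoconversion library and 172 CPM in the Visudyne-only library, a ratio of 1.35 (1.18 to 1.55). It was detected in 91 photoconversion cells (28.7%) and 100 Visudyne-only cells (18%). The richest cell held 21 UMIs in the photoconversion library and 16 in the Visudyne-only library, and without the 10 richest cells the ratio was 1.21 (1.02 to 1.44). Igf1 was thus spread over more cells than Spp1, and without its richest cells the ratio was smaller, with an interval above 1. Igf1os, annotated antisense to it, had 0 UMIs.

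Lgals3 (ENSMUSG00000050335, chromosome 14, 47367751 to 47386160) was at 56.7 CPM in the photoconversion library and 166 CPM in the Visudyne-only library, a ratio of 0.342 (0.273 to 0.425). It was present in 35 photoconversion cells (11%) and 66 Visudyne-only cells (11.9%). The 5 richest photoconversion cells held 11, 11, 9, 9 and 8 UMIs, and the 5 richest Visudyne-only cells 184, 28, 20, 17 and 11. A single Visudyne-only cell thus held 45.8% of that library's 402 UMIs. The ratio was 0.563 (0.437 to 0.722) without the richest cell of each library and 0.475 (0.316 to 0.699) without the 10 richest. Cells with monocyte or border macrophage markers held 4 Lgals3 UMIs in the photoconversion library and 63 in the Visudyne-only library. Without them the ratio was 0.384 (0.304 to 0.482), and without them and the richest cell 0.747 (0.568 to 0.976), so the direction was kept while the value no longer passed 1.5-fold lower.

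Lgals3bp (ENSMUSG00000033880, chromosome 11, 118392751 to 118402092) was at 524 CPM in the photoconversion library and 505 CPM in the Visudyne-only library, a ratio of 1.04 (0.951 to 1.13) whose interval included 1. Its UMIs were in 184 photoconversion cells (58.0%) and 284 Visudyne-only cells (51.2%). Its richest cell held 33 UMIs in the photoconversion library and 27 in the Visudyne-only library.

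**Figure D2:**
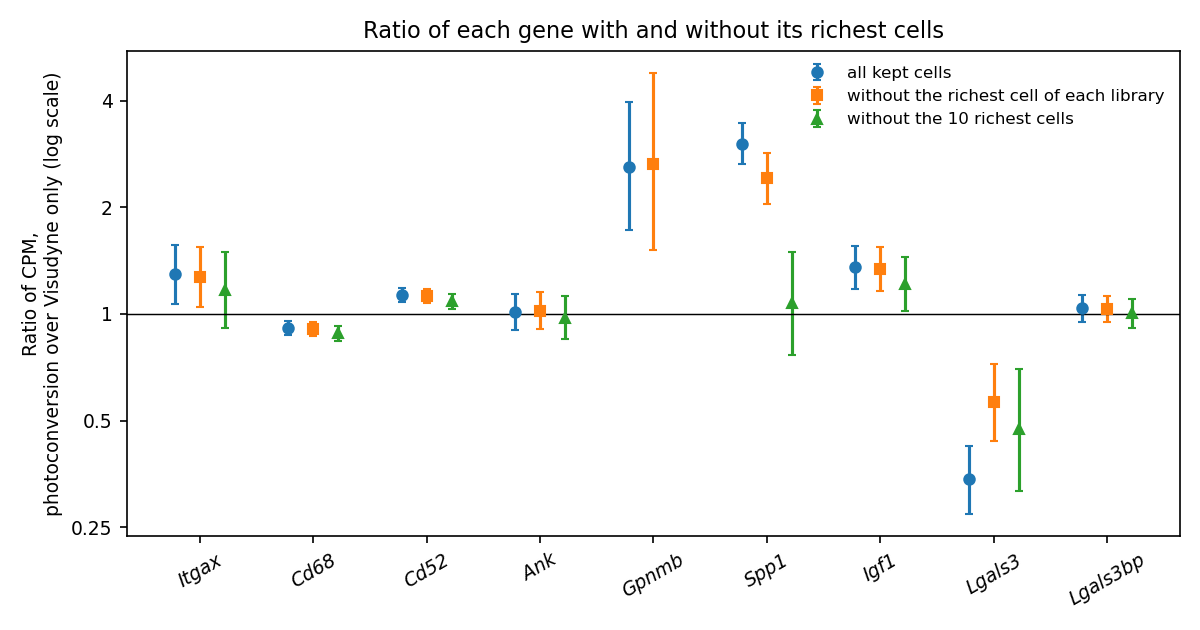
Ratio of CPM, photoconversion over Visudyne only, on a log axis with exact 95% intervals, for all kept cells (circles), without the richest cell of each library (squares) and without the 10 richest (triangles). The Spp1 ratio is 3.03, 2.42 and 1.07 in that order, the Lgals3 ratio 0.342, 0.563 and 0.475, and Gpnmb has no triangle because 1 and 0 UMIs were left.

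Over 50% of UMIs lay in the 10 richest cells of at least 1 library for 3 members, Spp1, Gpnmb and Lgals3, where 3.19% of the 4009 genes with at least 100 UMIs met that rule. For Spp1 the share in the 10 richest cells was 91.2% in the photoconversion library and 74.3% in the Visudyne-only library. For Gpnmb it was 98.6% in the photoconversion library and 100% in the Visudyne-only library, values that its 11 and 10 positive cells fix near the maximum however its UMIs are spread. Lgals3 had 65.0% in the photoconversion library and 73.9% in the Visudyne-only library. The other members had lower shares, between 12.3% for Cd68 in the Visudyne-only library and 43.7% for Itgax in the photoconversion library. The 10 deepest cells held 12.5% of all UMIs in the photoconversion library and 9.03% in the Visudyne-only library. They held 48.2% of Spp1 UMIs in the photoconversion library and 25.7% in the Visudyne-only library. Most of this lay in 1 cell of each library, with 46.0% of photoconversion and 21.9% of Visudyne-only Spp1 UMIs. The part of depth in the concentration of Spp1 was not tested.

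**Figure D3:**
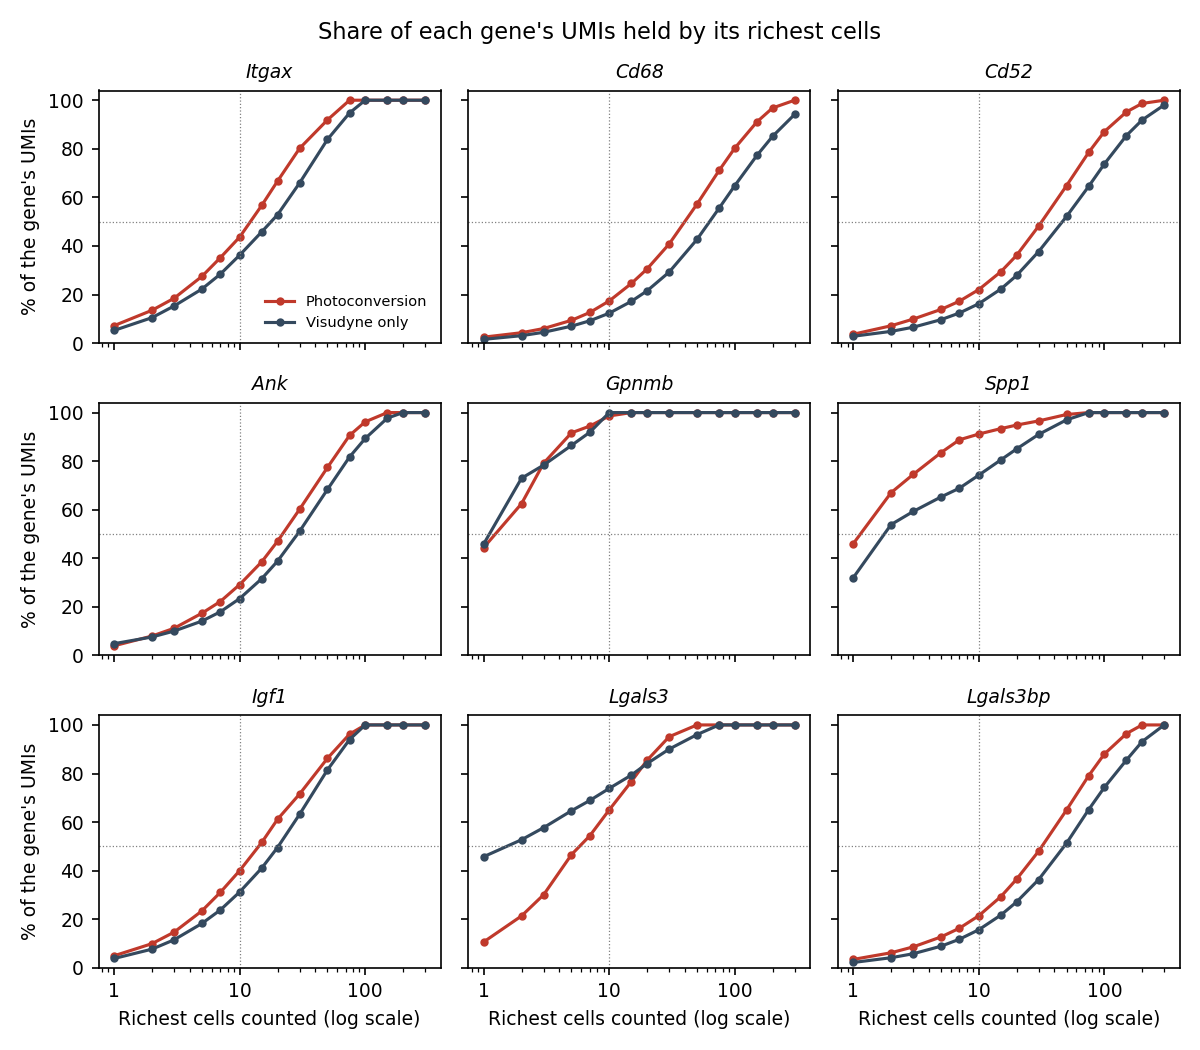
Cumulative share of each member's UMIs (percent) against the number of richest cells counted (log axis), for the photoconversion library (red) and the Visudyne-only library (dark); dotted lines mark 50% and 10 cells. Spp1, Gpnmb and Lgals3 cross 50% before 10 cells in at least 1 library, and the other members do so later.

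The richest cells differed in what else they held. In the photoconversion library the cell with 349 Spp1 UMIs among 20144 had 10 Itgax, 11 Igf1, 101 Cd52 and 0 Gpnmb UMIs. Genes of MHC class II led it, with 222 H2-Ab1 and 444 Cd74 UMIs, and it held 238 Apoe UMIs. The cell with 159 Spp1 UMIs was also the Gpnmb-richest, with 32, and held 738 Apoe UMIs among only 4564 in all. It had 0 UMIs of P2ry12 and 0 of monocyte or border macrophage markers. In the Visudyne-only library the Spp1-richest cell had 107 Spp1 but 34 Apoe UMIs among 13898, and 0 of Gpnmb and Igf1. The next, with 73 Spp1 UMIs, was both Gpnmb-richest with 17 and Cd52-richest with 122 UMIs, and held 427 Apoe, 249 Cd74 and 3 monocyte marker UMIs among 18443. Cells rich in Spp1 were thus not uniform in Apoe or in class II genes.

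In the Visudyne-only library the Lgals3-richest cell had 184 Lgals3 and 71 Cd68 UMIs among 14101, the most of either gene in that library. It held 185 microglia marker UMIs, but 0 of Itgax, Spp1, Gpnmb and Igf1, 10 of Apoe and 1 of P2ry12. Its monocyte and border macrophage marker count was 0, and its leading gene by fold over the other cells was Vcam1, an adhesion molecule, with 26 of the library's 42 UMIs. The next Lgals3 cell, with 28 UMIs, held 122 monocyte marker UMIs, including 49 of Plac8 and 29 of Ly6c2. Over all kept cells the monocyte marker list summed to 38 UMIs in the photoconversion library and 259 in the Visudyne-only library. Border macrophage markers summed to 22 UMIs in the photoconversion library and 107 in the Visudyne-only library, 2 of these 9 markers being at 0 in both. Their part in the Lgals3 difference was not tested beyond the ratios given without such cells.

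At 1000 UMIs per cell, 272 photoconversion and 439 Visudyne-only cells were deep enough to compare shares of cells with a UMI. Averaged over all possible thinnings, Igf1 was detected in 11.8% of photoconversion and 7.81% of Visudyne-only cells, Lgals3 in 2.63% of photoconversion and 5.47% of Visudyne-only cells, and Spp1 in 6.63% of photoconversion and 4.12% of Visudyne-only cells. No interval was computed for these averages. In 1 random thinning the differences were 6.26 percentage points (1.62 to 11.3) for Igf1, -3.94 points (-6.96 to -0.68) for Lgals3 and 0.54 points (-2.55 to 4.09) for Spp1. That draw thus gave wider gaps than the averages for Igf1 and Lgals3 and a narrower one for Spp1, and its intervals do not cover the spread between draws. For the members other than Igf1 and Lgals3 the interval in that draw included 0. The widest of those were -1.95 to 13.1 points for Cd52 and -5.44 to 8.97 points for Lgals3bp. Differences of several points in Cd52 or Lgals3bp were thus not detectable at this depth.

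Free RNA can give UMIs in cells that do not express a gene. Kept cells led by endothelial, mural, astrocyte or oligodendrocyte markers numbered 9 in the photoconversion library, with a median of 741 UMIs, and 10 in the Visudyne-only library, with a median of 3579. Thinned to 500 UMIs, 6 of these photoconversion cells and 8 of these Visudyne-only cells remained. Cd52 and Lgals3bp were each found in 1 such cell per library, and the other members in 0. Apoe was found in 4 of the 6 photoconversion and 5 of the 8 Visudyne-only cells. Of the other cells, 68.5% in the photoconversion and 58.3% in the Visudyne-only library had it, so its detection was not told apart between these cells and the others. Its level in such cells before thinning was 5113 CPM in the photoconversion library and 4967 CPM in the Visudyne-only library. Whether such cells express Apoe themselves was not tested, so these values are no measure of free Apoe RNA. Apoe stood further apart in barcodes with too few genes to be kept, at 13758 CPM in photoconversion and 7043 CPM in Visudyne-only barcodes. How much of that was free RNA was not tested. For the 6 photoconversion cells a zero allows shares of up to 45.9% by the exact binomial interval, which is no useful limit.

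**Figure D4:**
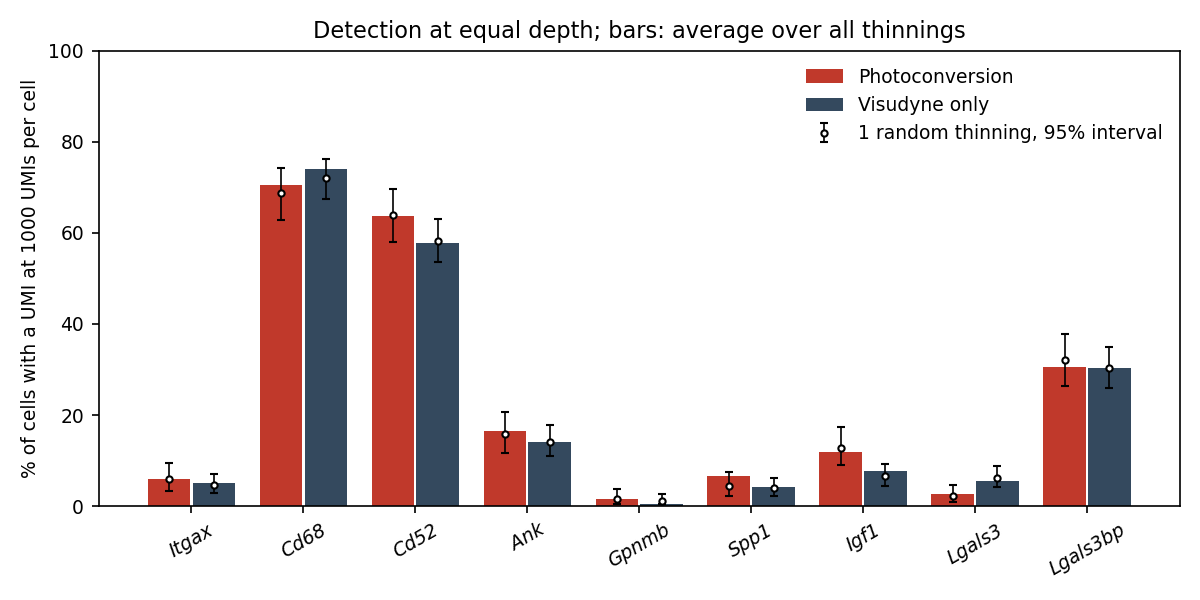
Percent of cells with a UMI of each member at 1000 UMIs per cell, photoconversion (red, left) and Visudyne only (dark, right). Bars are averages over all thinnings, and open points with 95% exact intervals are 1 random thinning. The Igf1 bars stand at 11.8% in the photoconversion library and 7.81% in the Visudyne-only library, and the Lgals3 bars at 2.63% and 5.47%.

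In 1 random thinning to 1000 UMIs the number of members in a cell did not differ beyond counting error. The median cell held 2 of the 9 members in either library. At least 4 members were present in 28 of 272 photoconversion cells (10.3%, 6.95 to 14.5%) and in 46 of 439 Visudyne-only cells (10.5%, 7.77 to 13.7%), a difference of -0.18 points (-4.85 to 4.84). Without thinning the shares were 40.7% of photoconversion and 30.6% of Visudyne-only cells, and at 2000 UMIs 35.2% of photoconversion and 28.1% of Visudyne-only cells. All 9 members were present in 2 photoconversion and 3 Visudyne-only cells without thinning, and 13 photoconversion and 45 Visudyne-only cells held 0 of them.

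Itgax, Spp1, Igf1 and Ank were found together more often than their separate shares give. Co-detection was read as the number of cells with both genes over the number expected from the shares of each, averaged over all thinnings to 2000 UMIs, in 230 photoconversion and 331 Visudyne-only cells. Of 36 member pairs, 25 had at least 5 cells observed or expected in each library, and 7 of these reached 1.5 in both libraries. Over all pairs of genes with at least 100 UMIs 0.0985% did so. The 7 were the 6 pairs among Itgax, Spp1, Igf1 and Ank, plus Igf1 with Lgals3. The ratio for Itgax and Igf1 was 2.15 in the photoconversion and 2.0 in the Visudyne-only library, from 12.5 photoconversion cells (5.83 expected) and 12.1 Visudyne-only cells (6.07 expected). For Spp1 and Ank it was 1.75 in the photoconversion and 1.97 in the Visudyne-only library, and for Igf1 and Lgals3 3.16 in the photoconversion and 2.03 in the Visudyne-only library.

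Read the other way, 44.9% of Itgax-bearing photoconversion cells also had Igf1, against 20.9% of all photoconversion cells, and the shares in the Visudyne-only library were 32.1% and 16.0%. The ratio for Cd52 and Cd68 was 1.01 in the photoconversion and 1.02 in the Visudyne-only library. At 2000 UMIs Cd68 was in 87.4% of photoconversion and 88.5% of Visudyne-only cells, and Cd52 in 81.8% and 78.0%. Shares this high hold the ratio under 1.5, so no pair with either gene could pass. Spp1 and Gpnmb had ratios of 4.9 in the photoconversion and 7.7 in the Visudyne-only library, but too few cells to be counted. At 1000 UMIs 19 pairs had enough cells and 2 reached 1.5 in both libraries, Spp1 with Ank and Igf1 with Ank, where 0.0915% of all pairs did. Pairs with Cd68 could not reach 1.5 at that depth either. With 1 random thinning to 1000 UMIs the count was 3 of 18 pairs, where 1.59% of all pairs passed, and with another seed 0, so only the averages are read here. Cells were not replicates, and the members chosen belong to a group known for rising together around plaques.

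**Figure D5:**
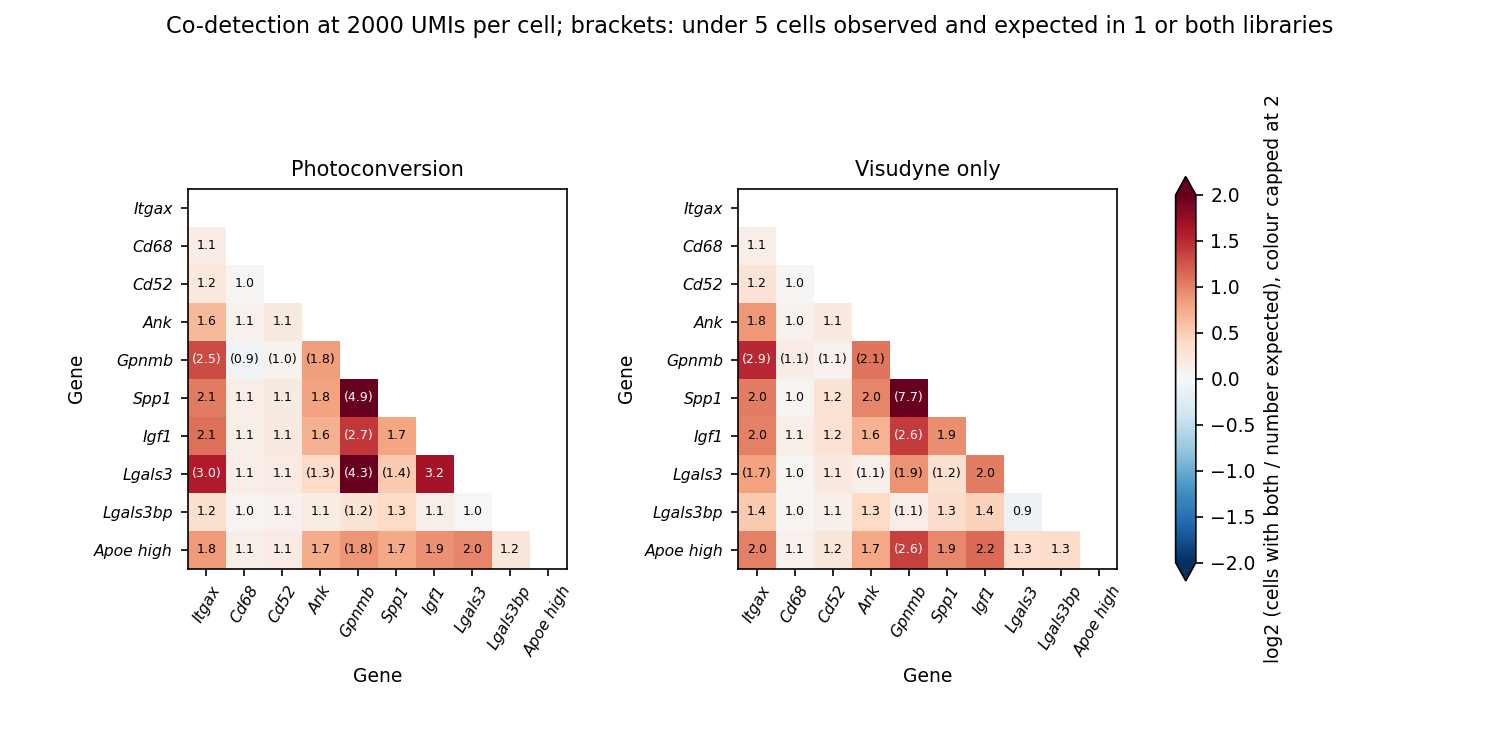
Cells with both genes over the number expected, at 2000 UMIs per cell averaged over all thinnings, for the photoconversion library (left) and the Visudyne-only library (right); colour is the log2 of the printed ratio, and brackets mark pairs with under 5 cells. Ratios of 1.5 or more in both libraries link Itgax, Spp1, Igf1 and Ank with each other and with high Apoe. High Apoe is at least 10 UMIs per 1000. Pairs with Cd52 or Cd68 cannot reach 1.5, because most cells hold these genes.

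The same 4 members went with high Apoe, taken as at least 10 Apoe UMIs per 1000, a share not measured in the few cells led by other markers. At 1000 UMIs 7 members had enough cells and 4 reached 1.5 times the expected number in both libraries, where 1.13% of 1595 genes did. Cd68 could not, as it was in 70.6% of photoconversion and 73.9% of Visudyne-only cells. For Itgax the ratio was 1.87 in the photoconversion and 2.66 in the Visudyne-only library, and for Igf1 1.83 in the photoconversion and 2.52 in the Visudyne-only library. Ank had 1.75 in the photoconversion and 2.04 in the Visudyne-only library, and Spp1 1.81 in the photoconversion and 1.85 in the Visudyne-only library. At 2000 UMIs the count was again 4, of 8 members with enough cells, where 0.826% of genes passed. Cd52 and Cd68 could not reach 1.5 at that depth. In the photoconversion library cells with Igf1 averaged 18.8 Apoe UMIs per 1000 and cells without it 8.52, and in the Visudyne-only library 14.3 and 5.88. Cells with Cd68 averaged 11.1 Apoe UMIs and cells without it 6.50 in the photoconversion library, and 7.04 and 5.08 in the Visudyne-only library. Apoe itself was at 11257 CPM in the photoconversion library and 8571 CPM in the Visudyne-only library, a ratio of 1.31 (1.29 to 1.34). In barcodes with too few genes to be kept, Apoe was at 13758 CPM in the photoconversion library and 7043 CPM in the Visudyne-only library. These came from 1707 and 1034 UMIs, and the part of free RNA in the Apoe ratio or in high Apoe was not tested.

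In 1 random thinning to 1000 UMIs, the homeostatic sum was lower in cells with Igf1, Itgax, Ank or Spp1. Among these genes the gap was smallest for Spp1 in the photoconversion library, but not in the Visudyne-only library. The homeostatic list of 18 genes summed to 57.2 UMIs in Igf1-bearing photoconversion cells and 98.3 in those without Igf1, and to 58.7 and 107 in the Visudyne-only library. P2ry12, the purinergic receptor of resting microglia, averaged 1.03 UMIs in Igf1-bearing and 2.52 in other photoconversion cells, and 0.931 and 2.92 in the Visudyne-only library. With and without Itgax the sums were 58.8 and 95.1 in the photoconversion library and 73.7 and 105 in the Visudyne-only library, and with and without Ank 62.5 and 98.7 in the photoconversion library and 81.6 and 107 in the Visudyne-only library. With and without Spp1 they were 87.9 and 93.2 in the photoconversion library, from 12 cells with it, and 76.5 and 105 in the Visudyne-only library, from 17. P2ry12 averaged 1.25 UMIs in Spp1-bearing and 2.38 in other photoconversion cells, and 1 and 2.86 in the Visudyne-only library. Tmem119 averaged 0.917 and 0.985 UMIs in the photoconversion library, and 0.294 and 1.20 in the Visudyne-only library. Cx3cr1, the fractalkine receptor, averaged 2.17 UMIs in Spp1-bearing and 1.47 in other photoconversion cells, but 1.06 and 1.45 in the Visudyne-only library. For Cd68 the sum ran the other way, at 99.5 UMIs in Cd68-bearing and 78.7 in other photoconversion cells, and 110 and 87.7 in the Visudyne-only library. Before thinning, Igf1-bearing cells were deeper, with medians of 7655 UMIs against 3774 in the photoconversion library and 9206 against 3453.5 in the Visudyne-only library, and the part of depth in these sums was not tested.

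By the Spearman correlation across thinned cells, as a description over 272 photoconversion and 439 Visudyne-only cells that share a library, only Cd52 and Cd68 had genes at a mean rho of 0.3 or more among 1006 genes, and the 3 highest of each are named. For Cd52 they were the cystatin gene Cst7 (0.43), Tyrobp, the adaptor of Trem2 (0.43), and the ribosomal gene Rpl41 (0.37). For Cd68 they were the cathepsin genes Ctsd (0.35) and Ctsz (0.34) and the lipid receptor Trem2 (0.33). The other members are sparse and gave no gene at that level.

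Of 32 other genes known from disease-associated microglia, 20 had higher and 12 lower levels in the photoconversion library, with a median log2 ratio of 0.03 (24 higher and 8 lower with TMM scaling). 0 of the 32 were at least 1.5-fold higher, where 6.18% of all genes were, and 2 of the 32 were at least 1.5-fold lower, where 9.84% of all genes were. Fabp5, a fatty acid binding protein, had a ratio of 1.32 (1.16 to 1.49) and B2m, the class I light chain, 1.13 (1.11 to 1.15), while the aspartic protease Ctsd was at 1.01. Vim, the intermediate filament vimentin, was at 18.7 CPM in the photoconversion library and 84.6 CPM in the Visudyne-only library, a ratio of 0.221 (0.149 to 0.319). Its 34 photoconversion UMIs lay in 24 cells and its 205 Visudyne-only UMIs in 32. Of the latter, the Lgals3-richest cell held 19 and the next Lgals3 cell, with 122 monocyte marker UMIs, held 15. The part of cell type in this ratio was not tested. The chemokine Ccl4 had a ratio of 0.795 (0.736 to 0.859), and Cxcr4 was the other one past that fold, at 0.476 (0.206 to 1.01) from 10 photoconversion and 28 Visudyne-only UMIs. Cxcr4 was named after its value was seen.

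Most receptors, integrin partners and lysosomal companions of the members had lower levels, as did most genes. Of 23 with at least 20 UMIs, 5 had higher and 18 lower levels in the photoconversion library, with a median log2 ratio of -0.16 (8 higher and 15 lower with TMM scaling), and 3 were at least 1.5-fold lower, where 9.84% of all genes were. Over all 8823 genes 3736 were higher and 5087 lower, with a median log2 ratio of -0.06. Itgb2, the beta chain that pairs with the Itgax product, was at 217 CPM in the photoconversion library and 281 CPM in the Visudyne-only library, a ratio of 0.772 (0.680 to 0.875). Itgam, the CD11b chain, had a ratio of 1.05 (0.916 to 1.20), and the osteopontin-binding integrin chain Itgb5 at 0.933, with an interval from 0.869 that included 1. The tetraspanin Cd63 and the lysosomal membrane proteins Lamp1 and Lamp2 had ratios of 0.980, 0.960 and 0.896, and the intervals of Cd63 and Lamp1 included 1. Of 12 transcription factor genes with at least 20 UMIs, 7 were higher and 5 lower. Spi1, which encodes PU.1, was at 0.907 (0.813 to 1.01) and Cebpa at 1.05 (0.917 to 1.20). Homeostatic genes had 4 higher and 14 lower of 18, with a median log2 ratio of -0.21 (7 higher and 11 lower with TMM scaling).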

How the data were processed

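Cortical cells of male 5xFAD mice, pooled from 3 mice per library, were profiled by 10x Genomics droplet sequencing, 1 library per group. The authors deposited unnormalized UMI counts for every gene and barcode. They used the tools bcl2fastq and Cell Ranger and the genome mm10, per the submitters' processing notes; the file headers give Cell Ranger 3.0.2. Both libraries have 2000 barcodes, and how these were chosen is not given in the sources used here.

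Counts were summed over kept cells and scaled to their total (CPM). Intervals are exact Poisson for sums, conditional binomial for ratios, Clopper-Pearson for shares and combined exact limits for share differences, at 95% and for counting error only. A log2 ratio had 0.5 added to each count. A zero count was read against a floor of 3 counts per library. Cells were thinned to 1000 UMIs with seed 1, which left out 45 photoconversion and 116 Visudyne-only cells. Averages over all thinnings used hypergeometric detection probabilities per cell, and were added after a single thinning proved unstable. Steps were tested on simulated data. Python 3.11.15 with scipy 1.17.1, edgeR 4.0.16 (TMM) and DESeq2 1.42.0 (size factors) were used. These factors shifted log2 ratios by 0.068 and 0.056.

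The members and all gene lists were chosen with earlier results of these data known. Named genes were the members, Apoe, and within lists those with the most UMIs or the extreme ratios among genes with at least 100 UMIs. Coordinates came from GENCODE M21 on mm10 and promoters from RefSeq on GRCm38.p6. Alternatives covered filters, scaling, doublet calls (Scrublet marked 5 photoconversion and 28 Visudyne-only cells), depth and the richest cells.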

Additional observations from a re-analysis of the deposited data

Results flagged for a closer look

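Barcodes outside the kept cells also held UMIs of the members. All 9 members were compared in both kinds of barcodes given below, and 3 of these values stood above the Visudyne-only level beyond counting error. The share of all genes that did so in these barcodes is not given here, so the count of 3 has no background to be set against. In barcodes with fewer than 200 genes, 1608 in the photoconversion and 1340 in the Visudyne-only library, Spp1 was at 169 CPM in the photoconversion library and 68.1 CPM in the Visudyne-only library, from 21 and 10 UMIs, a ratio of 2.48 (1.12 to 5.91). Cd52 in the same barcodes was at 1056 CPM in the photoconversion library and 613 CPM in the Visudyne-only library, a ratio of 1.72 (1.31 to 2.28). In barcodes with at least 200 genes and over 10% mitochondrial UMIs, 75 in the photoconversion and 105 in the Visudyne-only library, Spp1 was at 71.1 CPM from 7 UMIs in the photoconversion library and had 0 UMIs in the Visudyne-only library. Against a floor of 3 counts, 29.0 CPM, it was at least 2.45-fold higher, and the exact interval, which also covers the counting error of the 7 UMIs, had a lower limit of 1.51. Cd68 in these barcodes was below the Visudyne-only level, at 955 CPM in the photoconversion library and 1267 CPM in the Visudyne-only library, a ratio of 0.754 (0.572 to 0.990).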

How the results depend on the processing

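Of 124 alternative values of single members, 102 moved by less than the counting interval, 22 moved further, and 0 changed the sign of a value whose interval excluded 1. The median log2 ratio of the members, 0.18, was 0.25 with TMM, 0.28 with each cell weighed equally and 0.053 without the 10 richest cells. That last cut took a larger share of the photoconversion cells. The members at least 1.5-fold higher numbered 2, but 1 with a mitochondrial maximum of 5% and 0 without the 10 richest cells. They numbered 3, with Igf1 added, without the deepest 5% of cells and with each cell weighed equally. In 1 random thinning to 1000 UMIs they again numbered 2, but these were Spp1 and Igf1, the latter at a log2 ratio of 0.88. Gpnmb had under 20 UMIs there and was not counted. The 1 member at least 1.5-fold lower, Lgals3, became 0 without both the cells with monocyte or border macrophage markers and the richest cell, also chosen after seeing the data, and stayed 1 member under the other 17 alternatives. The 3 concentrated members stayed 3 under all 10 alternatives run for them. The difference in the share of cells with at least 4 members, -0.18 points, was 7.12 at 2000 UMIs and 10.1 without thinning. The 3 member pairs co-detected in a single thinning were 5 with a gene minimum of 400, 0 with a mitochondrial maximum of 5% and 1 with 20%. They numbered 1 at 500 UMIs, 6 at 2000 UMIs, 0 with another seed, 15 without thinning, 1 at a ratio of at least 2, and, averaged over all thinnings, 2 at 1000 UMIs and 7 at 2000 UMIs. The cause was not tested. Spp1 had a log2 ratio of 1.60 that ranged from 0.10 to 2.34. Leaving out the cells with monocyte or border macrophage markers, chosen after seeing the data, gave Spp1 a log2 ratio of 1.92. No paired analysis was possible because each group has 1 library. Depth limits detection, and a member with under 100 UMIs, Gpnmb in either library, has no firm ratio.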
